A study of Homo sapiens with 6 samples.

Results

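The microRNA machinery was followed through 10 genes in MDA-MB-231 cells given an siRNA against ING2 or a non-targeting control siRNA. The genes were DROSHA, DGCR8, XPO5, DICER1, TARBP2, PRKRA, AGO1, AGO2, TNRC6A and TNRC6B, and a probe set was a member if the platform annotation gave it 1 of these genes and no other. This left 32 probe sets of 9 genes, out of 41091 probe sets that named 1 gene each and 19777 genes in all. The genes were chosen with the difference between ING2 siRNA and control siRNA on these same 6 arrays already known. Their differences are therefore given as a description, with no p-value, and the number of probe sets past a threshold is printed only beside the share of all probe sets that passed it.

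The cells, MDA-MB-231, are a long-used breast cancer line of mesenchymal character and without estrogen receptor. The 3 ING2 siRNA samples received siRNA number 116981, the 1 siRNA against ING2 that the labels name, and the 3 control siRNA samples a non-targeting one. ING2 is a PHD finger protein that reads trimethylated lysine on histone H3 as part of a SIN3 histone deacetylase complex. Total RNA was taken on day 4 after transfection by one label field and on day 3 by another, and whether replicates came from separate cultures is not in the labels. A p-value here therefore reflects only how far these arrays spread, which could be technical. Both groups carry a transfected siRNA, which itself works through Argonaute proteins, and cells without any siRNA were not analysed here. In such bulk samples fewer cells with a transcript and less of it per cell cannot be told apart.

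A microRNA is transcribed as a long hairpin transcript, which the nuclease DROSHA and its RNA-binding partner DGCR8 cut in the nucleus. XPO5 carries the resulting short hairpin to the cytoplasm, where DICER1, with its double-stranded RNA-binding partners TARBP2 and PRKRA, cuts it to a duplex. An Argonaute protein such as AGO1 or AGO2 keeps one strand and pairs it with target mRNAs, and the GW-repeat proteins TNRC6A and TNRC6B recruit the deadenylases and decapping enzymes that silence them.

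DGCR8 had no member probe set. All 4 of its probe sets on the array are also annotated to MIR1306, a microRNA whose mature arms lie inside the DGCR8 gene on the same strand, so a signal there cannot be given to 1 gene by the annotation. The 2 arms, in GRCh38.p14 at chr22:20086072-20086093 (+) and chr22:20086112-20086129 (+), are shown from RefSeq because they are the reason that the Microprocessor is represented by DROSHA alone; capitals mark the seed, bases 2 to 8.
hsa-miR-1306-5p: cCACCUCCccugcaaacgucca
hsa-miR-1306-3p: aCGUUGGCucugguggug
The 2 arms do not share a seed. AGO2 kept 1 probe set, and its 3 others are also annotated to a second gene, CASC7.

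Facts of the whole data set bear on every value below. On its brighter probe set, ING2 itself read 163, 188 and 161 intensity units on the ING2 siRNA arrays. The control arrays read 1400, 1349 and 1324 there, so the level was 12.5% of control. Its dimmer probe set read 34.6, 40.1 and 26.8 units on the ING2 siRNA arrays, against 73.1, 111 and 93.7 on the control arrays. That was 36.5% of the control level, and the groups did not overlap on either probe set. Median intensity was 78.3 to 81.4 units on the ING2 siRNA arrays and 75.6 to 77.1 on the control arrays, and the interquartile range of log2 intensity was 3.18 ± 0.08 and 3.35 ± 0.02 (SD, n = 3 each), with no overlap between the groups and an exact two-sided permutation p of 0.1 for each, the smallest that 3 against 3 arrays allow. Dim probe sets accordingly tended to be higher and bright ones lower after ING2 siRNA: over 10 equal bins of intensity, the median log2 difference was 0.12 in bin 3, counted from the dim end, and -0.10 in bin 10, the brightest, and it was 0.07 over all 54613 probe sets other than controls. The 3′ control probe set of GAPDH exceeded the 5′ one, a gauge of RNA integrity, by 0.316 ± 0.042 log2 units after ING2 siRNA and by 0.205 ± 0.015 in controls (SD, n = 3 each, exact permutation p = 0.1), without overlap. For ACTB the same gap was 0.541 ± 0.096 after ING2 siRNA and 0.490 ± 0.110 in controls, and the groups overlapped (SD, n = 3 each, exact permutation p = 0.6). The part of these shifts in the differences below was not tested. The plot of all member probe sets sets each against the median of its intensity bin. All 6 mesenchymal markers of the line (VIM, CD44, AXL, CAV1, MSN and LGALS1) lay at or above percentile 97.5 of probe set intensity, while PGR, FOXA1, CDH1 and the leukocyte gene PTPRC lay between percentiles 10.9 and 38.3. KRT8 and EPCAM, 2 epithelial genes, lay at percentiles 98.8 and 91.0, and EPCAM read 719 to 900 units after ING2 siRNA and 1316 to 1711 in controls. The other markers of luminal, blood and fibroblast cells lay between percentiles 34.9 (PDGFRA) and 79.8 (COL1A1), with DCN at 53.8, CD3E at 62.4, LUM at 62.9, GATA3 at 73.1 and CD14 at 78.0. LUM read 54.7% of control and DCN 128%, and both passed the threshold used below. ESR1, at percentile 58.0, read 110 to 112 units after ING2 siRNA and 97.2 to 112 in controls. Summed intensity was 7609 to 8084 units after ING2 siRNA and 8058 to 8731 in controls over 7 luminal and epithelial markers, 458 to 504 and 455 to 532 units over 3 blood cell markers, and 665 to 679 and 621 to 719 units over 4 fibroblast markers.

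Of the 32 member probe sets, 16 had a log2 difference below 0 and 16 above it, with a median of -0.01 and a range from -0.57 to 0.29. Of all 54613 probe sets, 37.5% lay below 0. In the fit over all 54613 probe sets with limma, 3 member probe sets passed as lower and 0 as higher at a Benjamini-Hochberg adjusted p under 0.05, beside 5.28% of all probe sets in either direction, 3.64% lower and 1.64% higher. At an unadjusted limma p under 0.05 there were 4 higher and 4 lower, beside 16.4% and 11.6% of all probe sets. The 3 that passed were the brightest probe sets of DICER1, PRKRA and TNRC6A. Groups did not overlap in 11 member probe sets, 4 of them lower and 7 higher after ING2 siRNA, beside 32.8% of all probe sets (12.3% lower and 20.5% higher). Since the rule used this same contrast, nothing is read from these counts. Among 8 alternative fits on all 6 arrays, 3 to 5 member probe sets passed the threshold. Of the probe sets in each of these fits, 3.62% to 13.9% passed. The 13.9% belongs to the fit with dim probe sets left out, which held 21 of the member probe sets. Where all probe sets were kept, the highest share was 11.1%, with array weights. No member probe set passed without ING2 siRNA replicate 1 or 3, or without control replicate 2 or 3. In those fits only 0.399% to 0.981% of all probe sets passed.

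**Figure D1:**
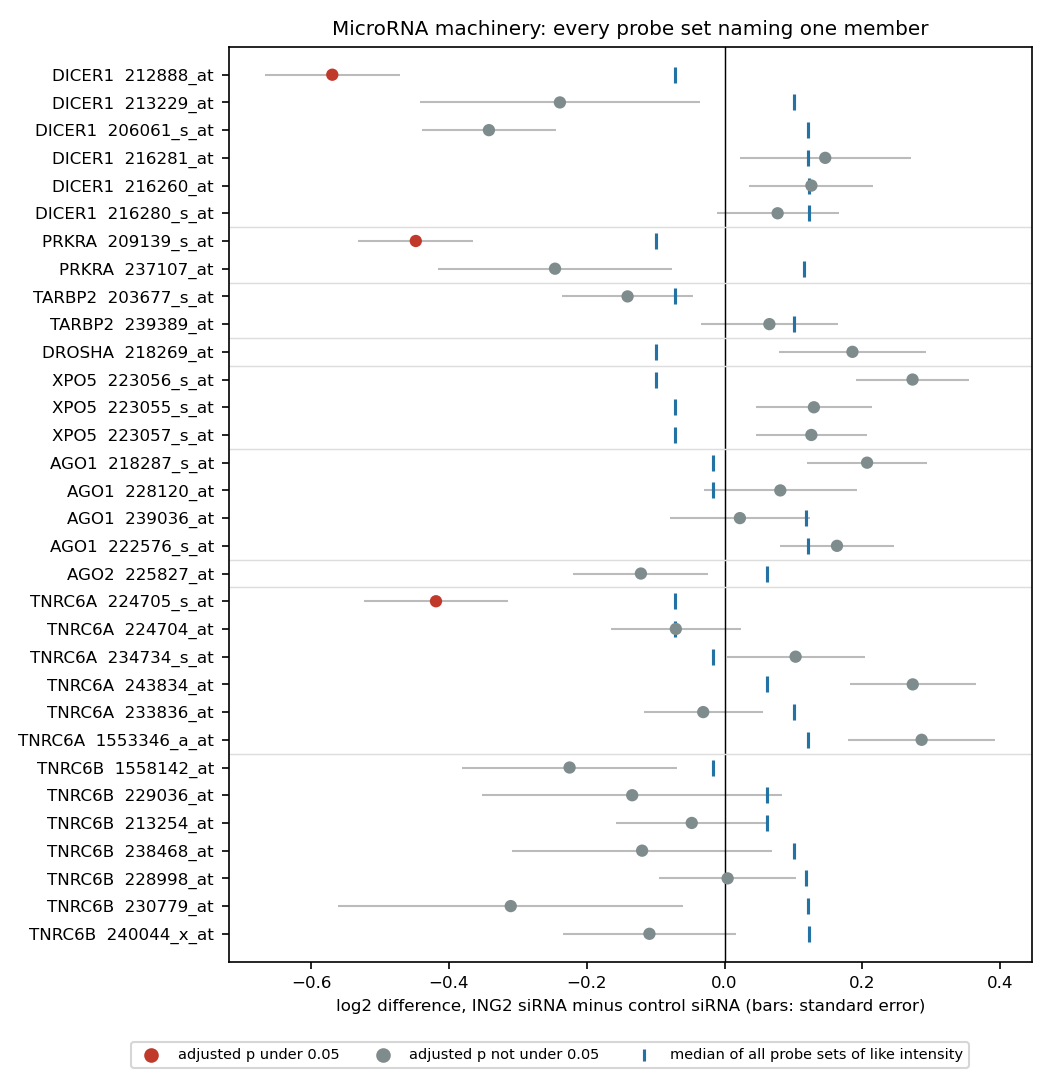
Each of the 32 member probe sets is a point at its log2 difference, ING2 siRNA minus control siRNA, with bars for the limma standard error (3 arrays per group) and a blue tick at the median difference of all probe sets in the same 1 of 10 intensity bins. Red points passed an adjusted p under 0.05 over all probe sets: 1 each of DICER1, PRKRA and TNRC6A, from -0.57 to -0.42, while the other probe sets of DICER1 and TNRC6A spread to both sides of 0.

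In the nuclear steps, DROSHA, the nuclease that opens the hairpin, has 1 probe set. It read 1133, 1348 and 1409 units on the ING2 siRNA arrays, against 1137, 1214 and 1061 on the control arrays, a log2 difference of 0.19 (SE 0.11, n = 3 per group). The groups overlapped, since ING2 siRNA replicate 1 lay below 2 of the controls. XPO5, the carrier of short hairpins out of the nucleus, was higher on every one of its 3 probe sets without overlap between the groups. Its brightest, 223056_s_at, read 1698, 1726 and 1757 units on the ING2 siRNA arrays, against 1450, 1466 and 1374 on the control arrays, a log2 difference of 0.27 (SE 0.08). The 2 others had differences of 0.13 (SE 0.08) each. All 3 lie in bins 9 and 10, the brightest, where the medians were -0.07 in bin 9 and -0.10 in bin 10, so the XPO5 values ran against the trend of their intensity class. None of the 3 passed the threshold over all probe sets as deposited, and 223056_s_at passed as higher in 6 alternative fits, among them quantile normalization (0.40) and cyclic loess (0.37).

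DICER1, the cytoplasmic nuclease that makes the microRNA duplex, has 6 probe sets, and they did not move together. The brightest, 212888_at, read 397, 464 and 438 units on the ING2 siRNA arrays, against 597, 691 and 639 on the control arrays. Every ING2 siRNA array lay below every control array. The log2 difference was -0.57 (SE 0.10, n = 3 per group), 67.4% of the control level, where the median of its intensity bin was -0.07. This probe set passed the threshold as lower, and again in 10 of the 14 alternative fits, the exceptions being the same 4 fits that left out an array and in which no member passed.

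The next DICER1 probe sets by intensity also had values below 0, with less separation. For 213229_at the readings were 63.4, 95.2 and 112 units on the ING2 siRNA arrays, against 84.1, 106 and 124 on the control arrays, a difference of -0.24 (SE 0.20). Both groups spread widely on it and overlapped, although each ING2 siRNA array read lower than the control of its number. The value was -0.0044 without ING2 siRNA replicate 1, against -0.42 when replicate 3 of that group was left out. For 206061_s_at the readings were 42.6, 39.8 and 43.4 units on the ING2 siRNA arrays, against 47.6, 54.8 and 57.4 on the control arrays, a difference of -0.34 (SE 0.10), with no overlap. It did not pass as deposited, but passed as lower after median centring (-0.41), quantile normalization (-0.44) and cyclic loess (-0.47), with array weights (-0.38) and without control replicate 1 (-0.42).

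The 3 remaining DICER1 probe sets lay above 0. For 216281_at the readings were 46.8, 43.4 and 36.7 units on the ING2 siRNA arrays, against 42.3, 39.6 and 32.9 on the control arrays, a difference of 0.15 (SE 0.12). For 216260_at they were 26.5, 23.2 and 25.8 units, against 23.8, 22.1 and 23.2, a difference of 0.13 (SE 0.09). For 216280_s_at they were 21.3, 24.4 and 22.8 units, against 22.0, 20.9 and 22.0, a difference of 0.08 (SE 0.09). ING2 siRNA and control readings overlapped on all 3, although on 216281_at and 216260_at each ING2 siRNA array exceeded the control of its number. All 3 probe sets are dim, in intensity bins whose medians were 0.12. Measured from the median of their bins they stood at 0.02, 0.0031 and -0.05, so they followed probe sets of like intensity, while 212888_at, 213229_at and 206061_s_at stood at -0.50, -0.34 and -0.46. After cyclic loess, 216280_s_at was at -0.04. Between the extremes of the gene, 212888_at and 216281_at, the difference in log2 change was -0.72. The exons covered by each probe set were not used here.

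**Figure D2:**
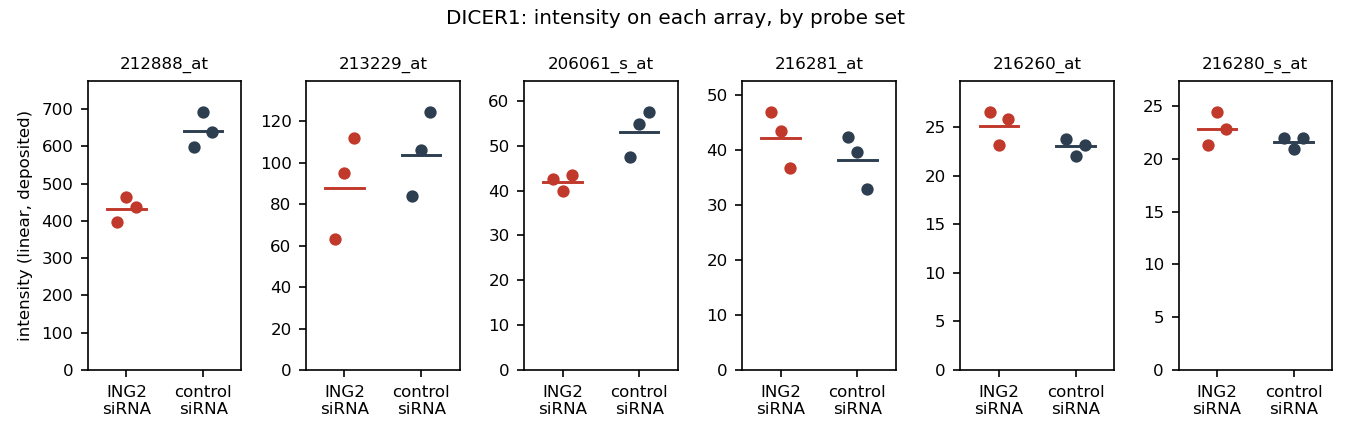
Each panel shows 1 DICER1 probe set, from brightest to dimmest, with deposited linear intensity from 0 on its own scale, 1 point per array and a line at the geometric mean of each group (3 arrays each). The ING2 siRNA points lie wholly below the control points for 212888_at and 206061_s_at and overlap them for the other 4.

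TARBP2 and PRKRA, the related double-stranded RNA-binding partners of DICER1, have 2 probe sets each. The bright probe set of PRKRA, 209139_s_at, read 1019, 959 and 992 units on the ING2 siRNA arrays, against 1316, 1410 and 1325 on the control arrays. The groups stood far apart for their spread, with a log2 difference of -0.45 (SE 0.08, n = 3 per group) at 73.3% of the control level, where the median of its bin was -0.10. It passed as lower, and did so in 8 of 14 alternative fits, but not after quantile normalization (-0.33) or cyclic loess (-0.35). Its other probe set, 237107_at, read 11.3, 13.0 and 13.6 units on the ING2 siRNA arrays, against 17.6, 11.0 and 17.3 on the control arrays, a difference of -0.25 (SE 0.17), and control replicate 2 lay below all ING2 siRNA arrays. The bright probe set of TARBP2, 203677_s_at, read 591, 569 and 513 units on the ING2 siRNA arrays, against 662, 594 and 588 on the control arrays, a difference of -0.14 (SE 0.09) with overlap. The other TARBP2 probe set, 239389_at, had a difference of 0.07 (SE 0.10) and overlapped as well, turning to -0.03 after cyclic loess.

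In the effector complex, AGO1 has 4 probe sets, all above 0, as were 34109 of all 54613 probe sets. None of the 4 AGO1 probe sets passed the threshold as deposited or in any alternative fit. Its brightest, 218287_s_at, read 381, 397 and 432 units on the ING2 siRNA arrays, against 356, 350 and 341 on the control arrays, a difference of 0.21 (SE 0.09) with no overlap. The probe set 222576_s_at also did not overlap, at 55.2, 57.0 and 56.9 units on the ING2 siRNA arrays, against 48.6, 50.2 and 52.3 on the control arrays (0.16, SE 0.08), but probe sets of that intensity had a median of 0.12. Values for 228120_at (0.08, SE 0.11) and 239036_at (0.02, SE 0.10) overlapped, and 239036_at was at -0.09 after cyclic loess. AGO2, the Argonaute that cuts perfectly paired targets, read 163, 166 and 192 units on its 1 probe set on the ING2 siRNA arrays, against 182, 181 and 202 on the control arrays, a difference of -0.12 (SE 0.10), with ING2 siRNA replicate 3 inside the control range. This 1 AGO2 value lay on the other side of 0 from those of AGO1, and the difference between the genes was not tested. The 3 probe sets annotated to both CASC7 and AGO2 lay above 0, at 0.06, 0.07 and 0.24, with overlapping groups.

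TNRC6A, a GW-repeat scaffold that links Argonaute to the deadenylases, has 6 probe sets with 3 values on each side of 0. The brightest, 224705_s_at, read 465, 533 and 552 units on the ING2 siRNA arrays, against 633, 684 and 754 on the control arrays. No ING2 siRNA array reached the lowest control, and the log2 difference was -0.42 (SE 0.10, n = 3 per group), 74.8% of the control level, where the median of its bin was -0.07. It passed as lower, and in 7 of 14 alternative fits, but not after quantile normalization (-0.32) or cyclic loess (-0.35). The second brightest, 224704_at, read 417, 497 and 460 units on the ING2 siRNA arrays, against 467, 501 and 472 on the control arrays, a difference of -0.07 (SE 0.09), at the median of its bin and with overlapping groups. These are neighbours in intensity, and their log2 changes differed by -0.35.

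Other TNRC6A probe sets went the other way. For 243834_at the readings were 213, 184 and 201 units on the ING2 siRNA arrays, against 173, 164 and 158 on the control arrays, a difference of 0.27 (SE 0.09), and for the dim 1553346_a_at they were 52.9, 49.5 and 64.3 units, against 45.1, 45.7 and 45.0, a difference of 0.29 (SE 0.11). On both, every ING2 siRNA array lay above every control array, and neither passed the threshold as deposited or in any alternative fit. Bin medians there were 0.06 and 0.12. For 234734_s_at the readings were 318, 308 and 341 units on the ING2 siRNA arrays, against 338, 285 and 281 on the control arrays (0.10, SE 0.10), and for 233836_at they were 87.6, 93.9 and 91.2 units, against 98.8, 89.2 and 90.7 (-0.03, SE 0.09). The groups overlapped on both. From 224705_s_at to 1553346_a_at the log2 changes of this 1 gene differed by -0.70, close to the widest gap within DICER1.

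**Figure D3:**
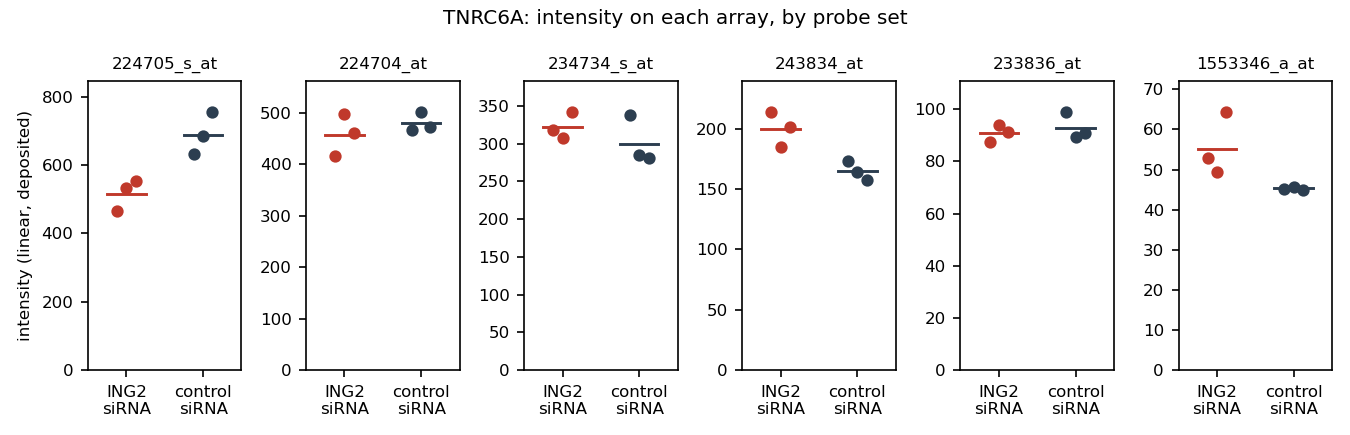
Each panel shows 1 TNRC6A probe set, from brightest to dimmest, with deposited linear intensity from 0 on its own scale, 1 point per array and a line at the geometric mean of each group (3 arrays each). The ING2 siRNA points lie wholly below the control points for 224705_s_at and wholly above them for 243834_at and 1553346_a_at.

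TNRC6B, a second GW-repeat scaffold, has 7 probe sets, of which 6 lay below 0, beside 37.5% of all probe sets. The groups overlapped on all 7. The brightest, 1558142_at, read 177, 241 and 233 units on the ING2 siRNA arrays, against 207, 254 and 302 on the control arrays, a difference of -0.22 (SE 0.16). The lowest value was that of the dim 230779_at, at 28.5, 53.4 and 54.9 units on the ING2 siRNA arrays, against 45.1, 49.1 and 71.9 on the control arrays (-0.31, SE 0.25). Its value rests on ING2 siRNA replicate 1 and control replicate 3, and with each of the 6 arrays left out in turn it ran from -0.47 to -0.002. On 229036_at the controls alone ran from 121 to 255 units, around ING2 siRNA readings of 153 to 174 (-0.13, SE 0.22). The 4 others had values from -0.12 to 0.004. Every TNRC6B value lay below the median of its intensity bin, and none passed the threshold as deposited or in any alternative fit.

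**Figure D4:**
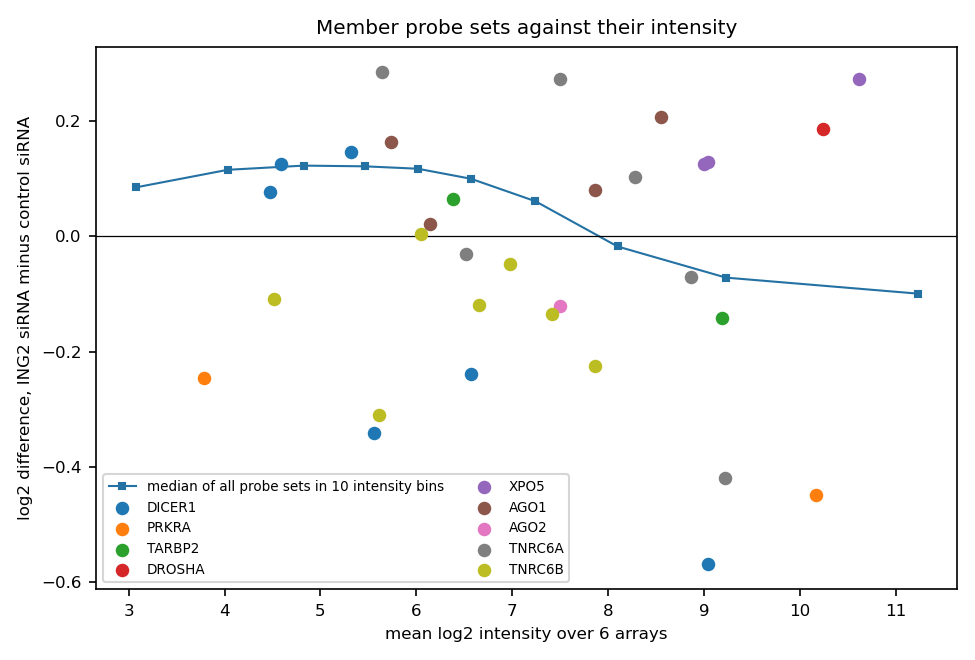
Each of the 32 member probe sets is placed by its mean log2 intensity over 6 arrays and its log2 difference, ING2 siRNA minus control siRNA, coloured by gene; the blue line joins the medians of all probe sets in 10 intensity bins. XPO5 and DROSHA lie above the line among bright probe sets, DICER1, PRKRA and TNRC6A each have 1 bright probe set well below it, and all TNRC6B points lie under it.

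The 3 genes whose brightest probe set was lower past the threshold are shown with the 250 bases before a start site, the outermost that the RefSeq promoter table of GRCh38.p14 lists for each. They were picked by that call on 1 probe set each, while other probe sets of DICER1 and TNRC6A lay above 0. A shared cause was not tested. Capitals mark the GC box GGGCGG and the CCAAT box CCAAT on either strand; the ETS site CCGGAAGT was also searched on both strands. The windows are chr14:95158011-95158260 (-), chr2:178451176-178451425 (-) and chr16:24729401-24729650 (+), the last inside the annotated interval of its gene.
DICER1: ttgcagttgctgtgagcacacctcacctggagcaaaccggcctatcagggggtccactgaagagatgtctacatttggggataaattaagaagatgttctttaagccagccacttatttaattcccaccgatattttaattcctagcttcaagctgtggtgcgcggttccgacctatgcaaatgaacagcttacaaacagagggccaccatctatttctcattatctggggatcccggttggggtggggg
PRKRA: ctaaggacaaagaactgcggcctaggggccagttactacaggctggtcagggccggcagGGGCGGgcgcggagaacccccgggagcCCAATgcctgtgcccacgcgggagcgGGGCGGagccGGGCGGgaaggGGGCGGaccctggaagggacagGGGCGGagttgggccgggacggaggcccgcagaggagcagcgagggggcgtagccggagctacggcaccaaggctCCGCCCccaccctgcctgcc
TNRC6A: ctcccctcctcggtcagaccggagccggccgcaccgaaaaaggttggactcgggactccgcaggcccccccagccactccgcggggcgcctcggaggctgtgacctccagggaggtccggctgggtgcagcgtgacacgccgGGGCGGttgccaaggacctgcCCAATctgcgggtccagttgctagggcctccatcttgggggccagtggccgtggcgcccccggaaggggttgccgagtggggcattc
The GC box occurs 6 times in the PRKRA window, 1 time in that of TNRC6A and 0 times in that of DICER1, and 42.6% of 35116 windows of this length hold it. The CCAAT box occurs 1 time each in PRKRA and TNRC6A, and in 32% of windows, and the ETS site, found in 3.42% of windows, is in none of the 3. The DICER1 window has 6 CG pairs against 22 for PRKRA and 21 for TNRC6A, where the median window has 11. DICER1 has 5 start sites in the table and PRKRA 3, and the arrays do not say which were used.

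Over the 6 arrays, the genes whose centred log2 profile was nearest to the DICER1 probe set 212888_at were CLK4, IDH3A and CHEK1, with root mean square differences of 0.030, 0.031 and 0.033 log2 units, where the median gene was at 0.347. Nearest to the TNRC6A probe set 224705_s_at were DTWD1, SRP9 and PPP2R5C, at 0.036, 0.039 and 0.040 log2 units with the median gene at 0.287. The 6 named genes had log2 differences from -0.58 to -0.37. A profile of 6 arrays in 2 groups consists largely of the difference between the groups, so likeness here is a description only.

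The rest of the pathway was read from lists of 98 other genes, of which 87 had a probe set of their own, represented by the brightest. With the limma fit over all probe sets, 1 of the 87 rose and 8 fell, 10.3% in all, beside 4.94% of genes in either direction, 1.79% higher and 3.15% lower. The median over the 87 was -0.04. All 8 falls lay in intensity bins 8 to 10. Of all probe sets above the median intensity, 6.42% passed as lower and 1.25% as higher. The lists were chosen with earlier results of these data known, so nothing is read from these counts or those below. For the same reason, the limma adjusted p-values of single genes below only say which passed the threshold, as a description. Without ING2 siRNA replicate 1, control replicate 2 or control replicate 3, 1 gene fell and 0 rose, without ING2 siRNA replicate 3 there were 0 of either, and without control replicate 1 there were 13 falls. Quantile normalization left 2 falls and cyclic loess 3.

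Of 13 genes listed for mRNA decapping and decay, the nuclear XRN2 among them, 4 fell and 0 rose. This was 30.8% beside 4.94% of all genes, with a median of -0.10. After quantile normalization 1 of the 4, LSM14A, still passed. Most of the 13 lie in bins 9 and 10, where the medians of all probe sets were -0.07 and -0.10. Since the list was chosen with earlier results of these data known, its share is a description only. LSM14A, a P-body protein, read 928, 981 and 897 units on the ING2 siRNA arrays, against 1335, 1404 and 1439 on the control arrays, a log2 difference of -0.57 (SE 0.09, limma adjusted p = 0.0103). It passed in 13 of 14 alternative fits, though 1 of the other 2 probe sets of LSM14A read 96.7% of control and did not pass. The decapping enzyme DCP2 fell by 0.67 (SE 0.15, limma adjusted p = 0.0388), at 656, 842 and 693 units on the ING2 siRNA arrays, against 980, 1446 and 1084 on the control arrays, while of its other probe sets 0 of 3 passed and 1 was above 0. The nuclear exonuclease XRN2 fell by 0.44 (SE 0.09, limma adjusted p = 0.0284), and both of its probe sets passed. The cytoplasmic exonuclease XRN1, named after its value was seen, fell by 0.39 (SE 0.10, limma adjusted p = 0.0482). In limma after quantile normalization, DCP2 (adjusted p = 0.0546), XRN2 (0.0671) and XRN1 (0.0984) did not pass, and after cyclic loess XRN2 (0.0561) and XRN1 (0.0759) did not.

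Among 11 enzymes that modify precursors or mature microRNAs, 1 fell and 0 rose, with a median of 0.01. It was TENT2, the cytoplasmic poly(A) polymerase also called GLD2, at 232, 317 and 273 units on the ING2 siRNA arrays, against 415, 535 and 458 on the control arrays, 58.2% of control (log2 -0.78, SE 0.13, limma adjusted p = 0.0168), and its 2 other probe sets lay below 0 without passing. In the deadenylase complexes, 1 of 14 genes fell and 0 rose, with a median of -0.03. CNOT8, a catalytic subunit, fell by 0.42 (SE 0.09, limma adjusted p = 0.0306) and passed on all 3 of its probe sets, but not after quantile normalization (0.0696) or cyclic loess (0.0611).

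Of 15 nuclear cofactors, 2 fell and 0 rose, with a median of -0.12. RAN, the GTPase that XPO5 needs for export, read 5467, 5324 and 4608 units on the ING2 siRNA arrays, against 6926, 6812 and 6716 on the control arrays, a difference of -0.41 (SE 0.09, limma adjusted p = 0.0390), opposite in sign to XPO5. HNRNPA2B1, a reader of nuclear RNA, fell by 0.45 (SE 0.09, limma adjusted p = 0.0325), while another of its probe sets read 119% of control. Both lost the call after quantile normalization (adjusted p = 0.0771 for RAN and 0.0633 for HNRNPA2B1) and cyclic loess (0.0822 and 0.0638). Of the 18 proteins that load or accompany Argonaute, 0 passed in limma. At an unadjusted limma p under 0.05 there were 7, beside 28% of all probe sets. The smallest p belonged to LIMD1 (-0.51, SE 0.14, limma adjusted p = 0.0605) and TSNAX (-0.49, SE 0.15, limma adjusted p = 0.0798). The LIMD1 probe set passed in 7 of 14 alternative fits, while the other LIMD1 probe sets ran from -0.27 to 0.12 and did not pass as deposited.

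The closest relatives of the members were also without a call. On the brightest probe set, AGO3 had a value of -0.22 (SE 0.10, limma adjusted p = 0.204) and TNRC6C 0.24 (SE 0.12, limma adjusted p = 0.211). Their other probe sets ran from -0.19 to 0.06 for AGO3 and from -0.16 to 0.15 for TNRC6C. Of the 3 genes in that list 0 passed, with 0 at an unadjusted p under 0.05. The 3 germline Argonautes, the PIWI proteins, had a median of 0.07 and 0 calls in limma, with 0 at an unadjusted p under 0.05. PIWIL4 stood at 0.12 (SE 0.11) and PIWIL1 at 0.07 (SE 0.09).

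Of 10 measured microRNA host transcripts, 1 rose and 0 fell, with a median of 0.15, and 4 lay below 0. The lowest 2, named after their values were seen, did not pass. DLEU2 stood at -0.54 (SE 0.16, limma adjusted p = 0.0757) without overlap between the groups. MIR100HG stood at -0.34 (SE 0.14, limma adjusted p = 0.138) with overlap. MIR31HG, whose annotated interval holds miR-31, read 102, 92.8 and 103 units on the ING2 siRNA arrays, against 65.3, 75.2 and 71.1 on the control arrays. Every ING2 siRNA array lay above every control array, with a log2 difference of 0.50 (SE 0.09, limma adjusted p = 0.0230), 1.41-fold, where the median of its bin was 0.10. It passed in 10 of 14 alternative fits, and did not pass without ING2 siRNA replicate 1 or 3 or control replicate 2 or 3. The mature arm that RefSeq lists, at chr9:21512158-21512178 (-) in GRCh38.p14, is shown because it is the microRNA tied to this transcript, with its seed in capitals; the arrays measured the host transcript, not the microRNA.
hsa-miR-31-5p: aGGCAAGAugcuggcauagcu

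**Figure D5:**
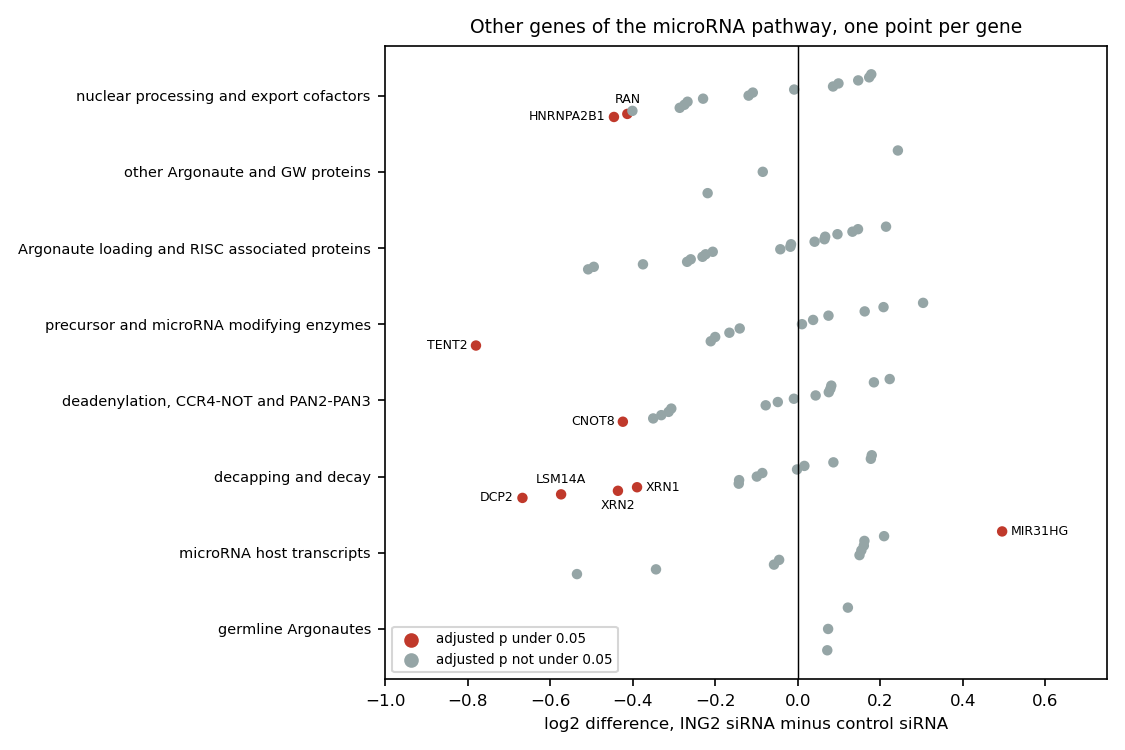
Each point is 1 of 87 other microRNA pathway genes at the log2 difference of its brightest probe set, ING2 siRNA minus control siRNA, grouped by role; red points passed an adjusted p under 0.05 over all probe sets and are named. The 8 falls lie in 4 of the 8 lists, from -0.78 for TENT2 to -0.39 for XRN1, and MIR31HG is the single rise.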

How the data were processed

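For each of 6 one-colour 3′ expression arrays, the deposited table holds 1 linear intensity per probe set. The submitters' processing notes name RMA and R 2.12; the sources used here do not give the background correction or how linear values were made. Of 54675 probe sets, 62 controls were left out. Gene names come from the 2016 platform annotation, updated by gene identifier to RefSeq symbols. The log2 of each value was fitted with limma 3.58.1 in R 4.3.3 (lmFit, eBayes), ING2 siRNA minus control siRNA, with no covariate or intensity filter, and p-values were Benjamini-Hochberg adjusted over 54613 probe sets. Differences are log2 with their standard error. The number of arrays limits the precision.

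Members and gene lists were chosen with earlier results of these data known. Named were every member probe set, and in each other list up to 3 rises and 3 falls past the threshold, or the 2 smallest p. The fit was tested on simulated data. Alternatives were 8 other fits, 6 fits leaving out an array, a stricter threshold and 1 probe set per gene.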

Additional observations from a re-analysis of the deposited data

How the results depend on the processing

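Over 14 alternative fits, 0 of the member probe sets past the threshold reversed sign, and the brighter ING2 probe set stayed past the threshold at -3.07 to -2.96 in the 6 fits that left out 1 array. In those 6 fits the count ran from 0 to 4 for member probe sets, 218 to 3845 for all probe sets, and 0 to 1 higher and 0 to 13 lower for other pathway genes. Of these genes, 2 fell after quantile normalization and 3 after cyclic loess, and 2 rose with log2(value + 16) or with dim probe sets left out. Array weights gave 5 member probe sets, 6048 probe sets in all, and 2 rises and 13 falls among pathway genes. With the replicate number as a block, 4549 probe sets and 14 falls among pathway genes passed, and the member count was 3. Deviations of same-numbered arrays correlated at 0.155, 0.201 and 0.008, and 2 of 3 ING2 siRNA arrays were nearest to the control of their number. These values do not settle whether the numbers are pairs, and the main fit did not treat them as such. Whether same-numbered arrays share a batch is not in the labels. At an adjusted p under 0.01, 276 probe sets passed, of which 0 were members or pathway genes. With 1 probe set per gene and p-values adjusted over those genes alone, 1640 genes passed at an adjusted p under 0.05. With p-values adjusted over all probe sets, 976 of 19777 genes passed. PIWIL1, without a call, turned to -0.035 after quantile normalization and -0.044 after cyclic loess. The causes were not tested.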

Other observations

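The probe sets annotated to both MIR1306 and DGCR8 could not be given to 1 gene and were left out above. Of these 4, 64474_g_at read 342, 350 and 386 units on the ING2 siRNA arrays, against 295, 302 and 256 on the control arrays, a log2 difference of 0.34 (SE 0.10), and 219811_at read 268, 244 and 306 units, against 238, 206 and 201 (0.34, SE 0.11). On both, every ING2 siRNA array lay above every control array, and neither passed the threshold over all probe sets. The others, 218650_at (0.30, SE 0.14) and 91617_at (0.005, SE 0.15), overlapped between the groups. The 3 probe sets annotated to both CASC7 and AGO2 had differences of 0.06, 0.07 and 0.24, with overlapping groups.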
